A study of Mus musculus with 12 samples.

Results

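The genes described here encode segments of the gamma-delta T cell receptor: the delta constant gene Trdc, the delta variable segments Trdv1 and Trdv4, the gamma constant genes Tcrg-C1, Tcrg-C2 and Tcrg-C4, and the gamma variable segments Trgv2 and Tcrg-V4. These 8 genes are members of 26 rows for delta and gamma segments (11 delta, 15 gamma) in a count table of 54232 genes. They were chosen by their counts across all groups, NK libraries included, in particular by the low counts of Trdc in CD8+ T cells of mutant mice. Levels of the 8 genes in KO or KE relative to WT, and in NK relative to CD8 libraries, are therefore given as a description from which nothing is tested. NK cells and CD8+ T cells were sorted from subcutaneous MC38 tumours (a mouse colon adenocarcinoma line) grown in 3 genotypes of mice. WT mice were C57BL/6N, KO mice carried the Tyk2 null allele B6N.129P2-Tyk2tm1Biat, and KE mice carried the kinase-inactive Tyk2 K923E allele on C57BL/6N. Mice were sex- and age-matched at 6 to 12 weeks, 1000000 cells were injected into each flank, and tumours were taken at day 8 to 10. After enrichment for CD45, 300 cells were sorted per library, as CD45+, CD3ε-, NK1.1+ (NK) or CD45+, CD3ε+, CD8a+ (CD8), and none of the mice received a drug. Each of the 6 groups (CD8 WT, CD8 KO, CD8 KE, NK WT, NK KO, NK KE) held 2 libraries. Neither sort included an antibody against a gamma-delta receptor, and the mutations were present in all cells of the host, whereas the tumour cells were of the MC38 line in every group.

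T cells carry either an alpha-beta or a gamma-delta receptor. Each chain is assembled in the thymus from variable (V), joining (J) and, for beta and delta, diversity (D) segments, which are then spliced to a constant (C) gene. The delta segments lie inside the alpha locus, so that a completed alpha rearrangement removes the delta genes from that chromosome. The mouse gamma locus is a row of cassettes, each with its own J segment and constant gene, and a gamma transcript carries the constant gene of the cassette it rearranged in. NK cells do not rearrange receptor genes, but transcripts of unrearranged constant genes are a known feature of NK cells.

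The constant genes of the gamma chain are shown first, because 50-nt reads must tell them apart. The lines below give the first 120 bases of the first coding exon of Tcrg-C1 (chr13:19214103-19214432, plus strand), Tcrg-C2 (chr13:19307222-19307551, minus strand) and Tcrg-C4 (chr13:19344558-19344887, plus strand), from the GENCODE M21 annotation of GRCm38, with bases that differ from Tcrg-C1 in capitals.
Tcrg-C1: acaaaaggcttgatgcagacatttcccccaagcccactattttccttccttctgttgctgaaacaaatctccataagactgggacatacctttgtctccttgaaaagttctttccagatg
Tcrg-C2: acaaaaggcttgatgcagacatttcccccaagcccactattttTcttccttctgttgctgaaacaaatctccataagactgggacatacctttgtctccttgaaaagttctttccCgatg
Tcrg-C4: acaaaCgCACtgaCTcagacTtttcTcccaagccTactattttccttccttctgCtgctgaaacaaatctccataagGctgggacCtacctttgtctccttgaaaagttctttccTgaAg
Within these windows, Tcrg-C2 differed from Tcrg-C1 at 2 bases and Tcrg-C4 at 14 bases. Over the whole first coding exon, identity with Tcrg-C1 was 97.3% for Tcrg-C2 and 82.1% for Tcrg-C4. Of all 50-base stretches in its transcripts, 34.2% for Tcrg-C1 and 25.4% for Tcrg-C2 also occurred in another annotated gene (each in the other, or in Tcrg-C3), whereas none did for Tcrg-C4, Trdv1 or Trdv4. Reads from such stretches are not unique and were not counted, so the counts of Tcrg-C1 and Tcrg-C2 leave out part of their transcripts. For Trgv2 (7.01%) and Trdc (5.92%) the shared part was smaller. For Tcrg-V4 it was 1.86%, shared only with Gm31887, an antisense gene annotated at the same place. These stretches of Tcrg-V4 therefore do not by themselves mean lost reads. The J segments that join to the first 2 of these constant genes are alike as well, and differ at 4 bases, shown in capitals in the second line (Trgj1, chr13:19210343-19210402, plus strand; Trgj2, chr13:19311245-19311304, minus strand).
Trgj1: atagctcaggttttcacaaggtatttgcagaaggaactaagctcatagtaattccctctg
Trgj2: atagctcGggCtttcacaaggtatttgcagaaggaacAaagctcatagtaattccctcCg

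The variable segments are given next. No 50-base stretch of Trdv1 or Trdv4 occurred in another annotated gene, while 7.01% of those of Trgv2 also occurred in Tcrg-V1 or Tcrg-V3. The second coding exon, which encodes the variable domain, is given from its start up to 300 bases for Trdv4 (chr14:54075217-54075515, plus strand), Trdv1 (chr14:53881936-53882217, plus strand), Trgv2 (chr13:19336580-19336879, minus strand) and Tcrg-V4 (chr13:19185200-19185499, plus strand).
Trdv4: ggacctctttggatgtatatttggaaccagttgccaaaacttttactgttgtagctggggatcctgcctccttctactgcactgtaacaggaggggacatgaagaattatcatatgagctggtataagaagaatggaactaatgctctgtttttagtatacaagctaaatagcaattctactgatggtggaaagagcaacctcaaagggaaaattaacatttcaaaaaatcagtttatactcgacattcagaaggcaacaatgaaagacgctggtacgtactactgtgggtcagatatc
Trdv1: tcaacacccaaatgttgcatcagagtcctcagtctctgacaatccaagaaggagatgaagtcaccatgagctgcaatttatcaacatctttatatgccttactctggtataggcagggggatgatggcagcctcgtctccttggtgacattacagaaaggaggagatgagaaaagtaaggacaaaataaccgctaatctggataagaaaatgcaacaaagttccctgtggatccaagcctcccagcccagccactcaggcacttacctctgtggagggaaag
Trgv2: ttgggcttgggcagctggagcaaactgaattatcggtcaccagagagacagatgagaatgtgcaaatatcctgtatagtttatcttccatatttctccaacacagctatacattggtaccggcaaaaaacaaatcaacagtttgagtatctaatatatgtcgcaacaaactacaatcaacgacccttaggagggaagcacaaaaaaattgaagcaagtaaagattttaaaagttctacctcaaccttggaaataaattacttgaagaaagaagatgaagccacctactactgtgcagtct
Tcrg-V4: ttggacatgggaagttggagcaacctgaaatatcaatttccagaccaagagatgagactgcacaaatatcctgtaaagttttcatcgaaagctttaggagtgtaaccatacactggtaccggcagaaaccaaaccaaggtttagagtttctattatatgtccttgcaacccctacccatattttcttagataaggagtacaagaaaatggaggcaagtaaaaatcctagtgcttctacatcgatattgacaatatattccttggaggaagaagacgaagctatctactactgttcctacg
The first pair carries the delta variable segments and the last pair the gamma variable segments. An antisense gene overlaps 3 members in the annotation, namely Gm43434 (Trdc), Gm30275 (Trdv4) and Gm31887 (Tcrg-V4), and Trdv5 overlaps the end of Trdc by 207 bases on the opposite strand. Whether the counting used strand was not stated, so reads from these partners could not be told apart. Their own counts reached at most 53 (Gm43434), 55 (Gm30275), 20 (Gm31887) and 54 (Trdv5).

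Libraries held 10378761 to 14732882 counts, at 12776 to 14015 genes detected. All 8 members had over 3 counts in at least 1 library and passed the filter on low counts (a mean of at least 10 normalised counts over the 12 libraries), which left 13279 genes. Levels are given as counts, and as CPM (counts scaled to a library of 1e+06 counts, with TMM factors) with the SD of n = 2 libraries. Tyk2, the targeted gene, had 809 and 889 counts in CD8 KO against 651 and 1187 in CD8 WT, and 720 and 1416 in NK KO against 726 and 894 in NK WT. The count over the whole gene did not separate the KO libraries. The exons that the KO allele lacks are not given in the sources used here, so this count does not check the label, and KO and KE stand for libraries labelled so. The mRNA of the sort markers followed the labels of cell type: Cd8a had 34034 to 55788 counts in CD8 libraries and 35 to 61 in NK libraries, and Klrb1c, which encodes NK1.1, 17 to 69 in CD8 and 12733 to 27515 in NK libraries. Ncr1, an activating receptor that marks NK cells, had 14 to 26 counts in CD8 and 10066 to 30681 in NK libraries. Macrophage and monocyte genes differed between NK libraries. Their summed level over 10 genes was 7381 to 8244 CPM in NK WT, 23.7 to 4986 CPM in NK KO and 61.3 to 242 CPM in NK KE, and none of the 10 was at 0 in all libraries. In CD8 libraries the sum was 49.3 to 365 CPM. The part of these cells in the NK values by genotype was not tested. In sorted pools, fewer cells of a type and less RNA per cell cannot be told apart.

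Trdc, which encodes the constant region of the delta chain, was high in all NK libraries, low in CD8 WT and near 0 in mutant CD8 cells. It had 143 and 177 counts (CD8 WT), 3 and 1 (CD8 KO) and 3 and 3 (CD8 KE). The mean level was 11.7 ± 1.59 CPM in CD8 WT, 0.156 ± 0.104 CPM in CD8 KO and 0.234 ± 0.0200 CPM in CD8 KE (SD, n = 2). All 4 mutant libraries lay below both WT libraries. The ratio of WT to KO counts after scaling was 73.7 (95% interval 28.5 to 272) and that of WT to KE 50.4 (22.9 to 138), where the exact intervals cover counting error only. Of all genes tested, 7.49% likewise had all 4 mutant CD8 libraries below both WT libraries, and 2 of the 8 members did (Trdc and Trdv1). No member had them above both, beside 6.79% of genes. Since Trdc was chosen for this difference, nothing further is read from it. In NK cells, Trdc had 1344 and 2790 counts (WT), 3070 and 4243 (KO) and 1913 and 1786 (KE). The mean levels were 164 ± 72.5 CPM (WT), 277 ± 51.9 CPM (KO) and 155 ± 30.0 CPM (KE). Here the KE libraries lay between the 2 WT libraries, whereas both KO libraries lay above them.

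NK genes were counted at different levels in the CD8 libraries. The summed level of 9 NK markers was 1896 to 2283 CPM in CD8 WT, 1473 to 2242 CPM in CD8 KO and 1543 to 2505 CPM in CD8 KE, so the groups overlapped, and none of the 9 was at 0 in all libraries. Klrk1, an activating receptor gene that activated CD8+ T cells also express, at 886 to 1356 CPM, and Prf1, which encodes perforin, at 294 to 839 CPM, were large parts of the sum. Klre1, an NK receptor gene of that list, had 1666 and 3093 counts (CD8 WT), 2223 and 1453 (CD8 KO) and 2694 and 4592 (CD8 KE). Fcer1g, also of that list, had 522 and 236 counts (CD8 WT), 775 and 59 (CD8 KO) and 1488 and 1268 (CD8 KE). None of the 9 was called by edgeR in CD8 KO or KE against WT. Ncr1 had 22 and 21 counts (CD8 WT), 26 and 21 (CD8 KO) and 16 and 14 (CD8 KE). Klrb1c had 31 and 32 counts (CD8 WT), 32 and 33 (CD8 KO) and 17 and 69 (CD8 KE). Klra8, a Ly49 receptor gene, had 4 to 11 counts in CD8 libraries. Klrb1f and Klra13-ps, genes of the NK gene complex outside the list, are described at the end: they were picked for their likeness to Trdc over these libraries, so that their lower counts in mutant CD8 libraries follow from the choice. The part of NK cells in the Trdc counts of CD8 libraries was not tested. Set against Trac, the alpha constant gene, Trdc counts came to 0.742% ± 0.104 of Trac counts in CD8 WT, 0.00701% ± 0.00156 in CD8 KO and 0.0157% ± 0.00553 in CD8 KE.

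**Figure D1:**
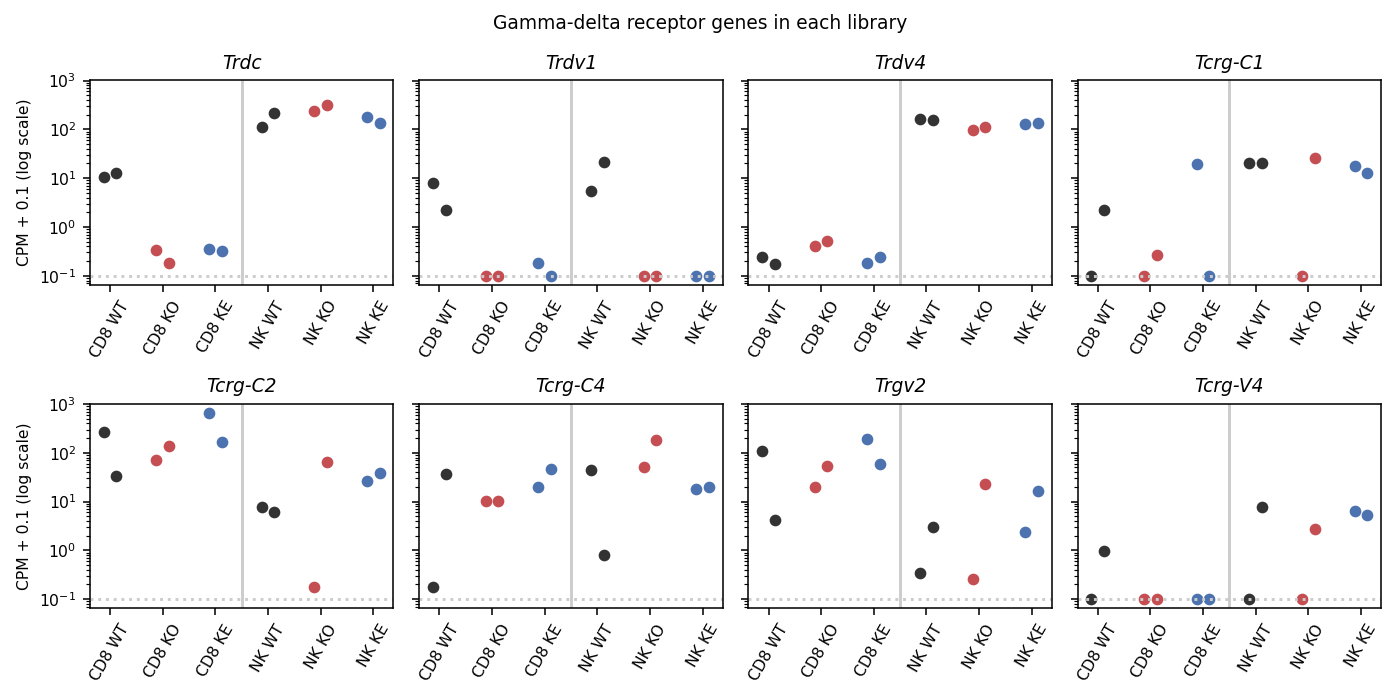
Level of each of the 8 genes in each library, as CPM + 0.1 on a log axis, by group; points are the 2 libraries of a group (WT dark grey, KO red, KE blue), and the dotted line marks a count of 0. Trdc and Trdv4 are higher in all NK libraries than in all CD8 libraries, and Trdc in mutant CD8 libraries lies at 0.0830 to 0.248 CPM.

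Trdv1, a delta variable segment, was counted in WT libraries of both cell types. It had 105 and 30 counts (CD8 WT), 0 and 0 (CD8 KO) and 1 and 0 (CD8 KE). The counts in NK cells were 64 and 282 for WT and 0 for all 4 mutant libraries. The level in WT was 4.98 ± 3.96 CPM in CD8 and 13.5 ± 11.6 CPM in NK. Relative to a floor of 3 counts over the 2 libraries of a group, CD8 WT was at least 41.4-fold higher than CD8 KO. NK WT was at least 122-fold higher than NK KO and at least 112-fold higher than NK KE. For CD8 KE, with 1 count, the ratio was 127 (95% counting interval 22.5 to 5071). In NK cells, 10.8% of all genes had all 4 mutant libraries below both WT libraries, and 2 of the 8 members (Trdv1 and Trdv4) did. No member had them above, beside 7.08% of genes. The NK WT libraries, in which Trdv1 was counted, were also those with the highest macrophage and monocyte sum. In NK KO that sum reached 4986 CPM, with 0 counts of Trdv1. In CD8 WT, with 105 and 30 counts of Trdv1, it was 156 to 176 CPM, and in CD8 KE, with 1 and 0 counts, 174 to 365 CPM. A link of Trdv1 with the macrophage and monocyte genes was not tested.

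Trdv4, the delta variable segment nearest to Trdc on the same strand (67.3 kb before it), was a transcript of NK libraries. It had 1944 and 2035 counts (NK WT), 1260 and 1490 (NK KO) and 1380 and 1768 (NK KE). In CD8 libraries it had 2 and 1 counts (WT), 4 and 5 (KO) and 1 and 2 (KE). The levels in NK cells were 160 ± 4.17 CPM (WT), 104 ± 8.18 CPM (KO) and 130 ± 3.75 CPM (KE). On the log2 CPM scale the difference from WT was -0.62 for KO and -0.30 for KE, values that carry no test here. Per kb of exon, Trdv4 stood at 360 CPM and Trdc at 42.4 CPM in NK WT, since the annotated Trdc exons span 3.865 kb and those of Trdv4 0.444 kb. Across the 6 NK libraries Trdv4 and Trdc did not rise together: Pearson's r of log2 CPM was -0.67 and Spearman's rho -0.77, a description over libraries that share the same sort.

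Of the other delta rows, those with the highest totals were likewise higher in NK than in CD8 libraries. Trdv2-2, a variable segment, had 476 and 710 counts (NK WT), 611 and 339 (NK KO) and 701 and 499 (NK KE), against 1 and 26, 1 and 1, and 0 and 31 in CD8 WT, KO and KE. The joining segment Trdj1 had 100 and 133 counts in NK WT, 178 and 289 in NK KO, and 133 and 172 in NK KE. In CD8 libraries it had 6 counts in 1 WT library and 0 in the other 5. The diversity segment Trdd2 had 39 and 59 (WT), 123 and 115 (KO) and 47 and 52 counts (KE) in NK libraries and 5 counts in 1 CD8 WT library, with 0 elsewhere, and Trdj2 had 9 to 33 in NK and 0 in CD8 libraries. Trdv5 reached 54 and Trdv2-1 reached 33 counts in NK libraries, both with 0 in CD8 libraries. Trdv3 was at most 2 counts and Trdd1 at 0 in all libraries. For 10 alpha variable segments the name also carries a delta name, and their counts differed from library to library, with at most 158 in a CD8 library and at most 54 in an NK library.

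**Figure D2:**
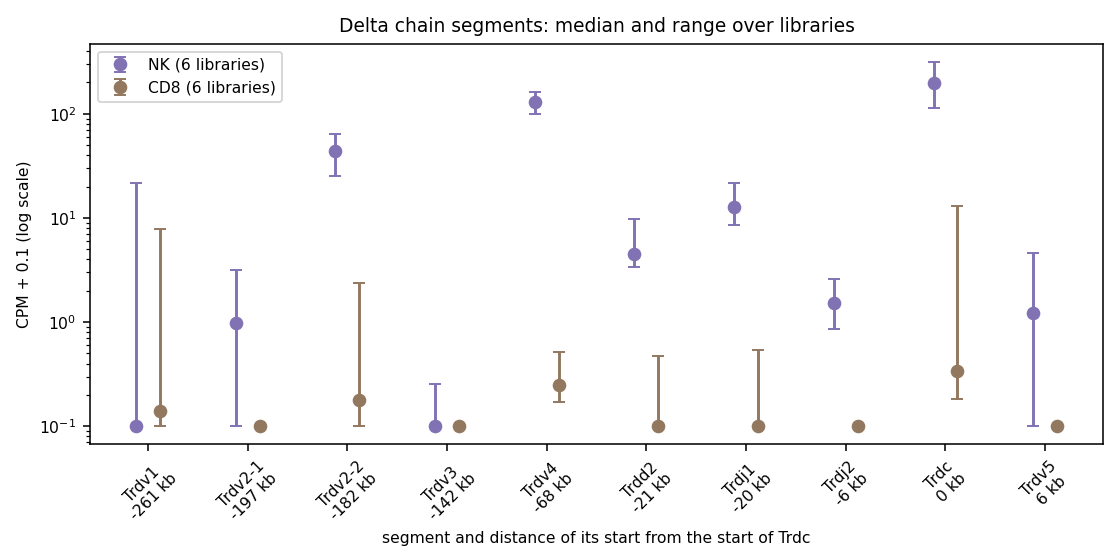
Delta segments ordered by the distance of their start from the start of Trdc (kb); points are medians and bars the full range over 6 NK and 6 CD8 libraries, as CPM + 0.1 on a log axis. The ranges of NK and CD8 libraries do not meet for Trdv2-2, Trdv4, Trdd2, Trdj1, Trdj2 and Trdc, with a median for Trdc of 196 CPM in NK and 0.239 CPM in CD8.

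The gamma constant genes did not follow the delta chain. Tcrg-C2 was the most counted gamma constant gene in 5 of 6 CD8 libraries (all but CD8 WT replicate 2), with 3621 and 462 counts (WT), 939 and 1639 (KO) and 7915 and 2260 (KE). In NK libraries it had 92 and 79 counts (WT), 1 and 870 (KO) and 285 and 522 (KE). The means were 151 ± 166 CPM (CD8 WT), 104 ± 45.4 CPM (CD8 KO) and 410 ± 346 CPM (CD8 KE), against 6.90 ± 1.14 (NK WT), 32.2 ± 45.4 (NK KO) and 32.7 ± 9.08 CPM (NK KE). In CD8 cells the genotypes overlapped, and the SD was of the size of the mean in WT and KE. Tcrg-C2 thus remained counted in all 4 mutant CD8 libraries that had 3 or fewer counts of Trdc.

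Tcrg-C1 had 0 and 29 counts (CD8 WT), 0 and 2 (CD8 KO) and 232 and 0 (CD8 KE). In NK libraries it had 238 and 264 counts (WT), 0 and 350 (KO) and 188 and 169 (KE). Its levels in NK cells were 20.1 ± 0.299 CPM (WT), 12.9 ± 18.3 CPM (KO) and 14.99 ± 3.29 CPM (KE), with 5 of 6 libraries at 12.7 to 25.9 CPM. Tcrg-C4 had 1 and 511 counts (CD8 WT), 132 and 122 (CD8 KO) and 238 and 620 (CD8 KE). In NK libraries it had 528 and 9 counts (WT), 642 and 2422 (KO) and 198 and 266 (KE). NK KO replicate 1 stood apart from the other NK libraries, with 0 counts of Tcrg-C1, 1 of Tcrg-C2 and 642 of Tcrg-C4, while its Trdc count (3070) lay within the NK range.

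Trgv2 tracked Tcrg-C2. Both lie on the minus strand, 29.0 kb apart, with Trgj2 3.7 kb from Tcrg-C2. Trgv2 had 1447 and 56 counts (CD8 WT), 253 and 647 (CD8 KO) and 2344 and 787 (CD8 KE). In NK libraries it had 3 and 37 counts (WT), 2 and 308 (KO) and 25 and 214 (KE). Over the 12 libraries, r of log2 CPM between Trgv2 and Tcrg-C2 was 0.92, and over the 6 CD8 libraries 0.97, with the same order of libraries in both genes (rho = 1.00). Trgj2 gave 0.92 over 12 libraries with Tcrg-C2, and Trgj4 gave 0.93 with Tcrg-C4. Other pairs of one cassette gave lower values: Trgj1 with Tcrg-C1 0.72, Tcrg-V4 with Tcrg-C1 0.67 and Tcrg-V1 with Tcrg-C4 0.24. Within a cell type, Trgv2 with Tcrg-C2 gave 0.82 in NK libraries, and Tcrg-V4 with Tcrg-C1 gave 0.59 in NK and 0.32 in CD8 libraries. Between cassettes, Tcrg-C2 with Tcrg-C4 gave -0.19 and Tcrg-C1 with Tcrg-C2 gave -0.01 over 12 libraries, the latter with 0.89 within NK and 0.32 within CD8 libraries. The points of these correlations share library and depth.

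Tcrg-V4, a variable segment 28.6 kb before Tcrg-C1, was low throughout. It had 0 and 12 counts in CD8 WT and 0 in the other CD8 libraries, and 0 and 99 counts (NK WT), 0 and 35 (NK KO) and 69 and 68 (NK KE). Apart from Trgv2 and Tcrg-V4, the gamma variable rows were counted in few libraries. Tcrg-V7 reached 161 counts in NK KO replicate 2 and 0 in every other library, Tcrg-V1 had 30 and 196 in CD8 KE, and Tcrg-V3 21 in CD8 KE replicate 1 alone. Tcrg-V5 and Tcrg-V6 reached 4 and 11 counts in NK libraries. Trgj2, the remaining row named for its total, had 178 and 19 counts in CD8 WT, 28 and 95 in CD8 KO, 321 and 83 in CD8 KE, 8 and 11 in NK WT, 0 and 61 in NK KO, and 3 and 19 in NK KE. The joining segments Trgj1 and Trgj4 reached 30 and 98 counts. Tcrg-C3 and Trgj3 had 0 counts in all libraries.

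**Figure D3:**
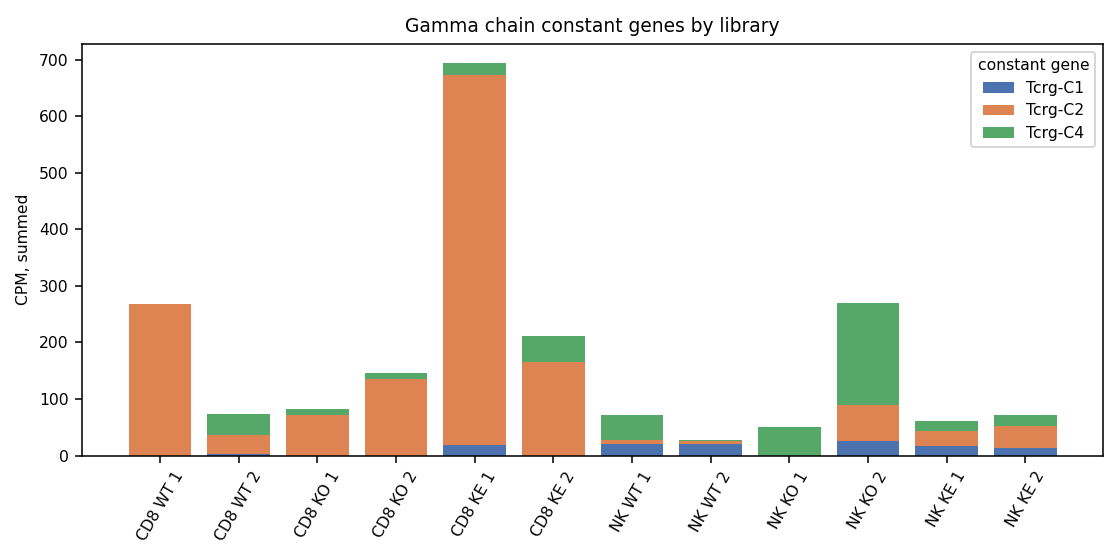
CPM of the 3 gamma constant genes, stacked, for each of the 12 libraries. Tcrg-C2 makes up most of the bar in 5 of 6 CD8 libraries, while the NK libraries hold different mixtures, from 27.1 CPM in NK WT replicate 2 to 269 CPM in NK KO replicate 2 in all.

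NK and CD8 libraries of each genotype were set side by side by the ratio of their scaled counts, with 95% intervals that cover counting error only and no test, since the counts of both cell types entered the choice of the members. Trdv4 had the highest ratio of the 8 genes in WT, at 1452 (496 to 7042), with 292 (153 to 638) in KO and 1116 (382 to 5415) in KE. It passed the filter on low counts through the NK libraries alone. Trdc gave 14.1 (12.6 to 15.9) in WT, 1744 (681 to 6404) in KO and 656 (301 to 1788) in KE. For both genes all 6 NK libraries lay above all 6 CD8 libraries, as they did for 2.03% of genes tested. No member had them below, beside 2.83% of genes.

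Tcrg-C2 and Trgv2 were lower in NK cells of each genotype when the 2 libraries were summed. The ratios of Tcrg-C2 were 0.0458 (WT), 0.322 (KO) and 0.0844 (KE), and those of Trgv2 0.0291 (WT), 0.329 (KO) and 0.0812 (KE). Tcrg-C4 gave 1.15 (WT), 11.5 (KO) and 0.575 (KE), and Tcrg-C1 18.9 (WT), 167 (KO) and 1.64 (KE). Single libraries carry many of these gamma sums, as the counts above show, and the intervals do not include that spread. Trdv1 gave 2.80 and Tcrg-V4 9.03 in WT. Tcrg-V4 was at 0 in mutant CD8 cells. Against the floor of 3 counts per group, its summed counts were at least 11.1-fold higher in NK KO and at least 48.6-fold higher in NK KE. In NK KO all 35 counts came from replicate 2, with 0 in replicate 1.

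**Figure D4:**
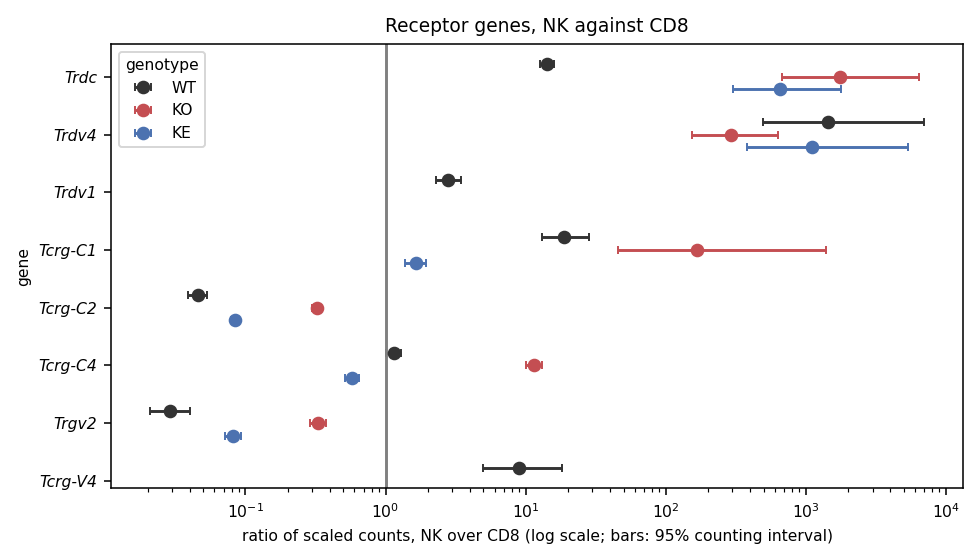
Ratio of scaled counts, NK over CD8 libraries (log axis), for each member and genotype (WT dark grey, KO red, KE blue); points are ratios of counts summed over 2 libraries a group and bars are 95% counting intervals. Ratios with 0 counts in a group are not drawn, and Trdv4 lies at 292 to 1452.

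KO and KE libraries were compared with each other within each cell type, which asks whether absence of TYK2 and loss of its kinase activity gave different levels. Trdc, chosen by its mutant CD8 counts, is left out here. In NK cells 6 of the other members were compared (Trdv1 was at 0 in all 4 mutant libraries), and in CD8 cells the 4 gamma genes other than Tcrg-V4, since Tcrg-V4, Trdv1 and Trdv4 had at most 5 counts there. By edgeR 0 were called (Benjamini-Hochberg adjusted p under 0.05 and a log2 fold change of at least 1 in size), with 0 also at an unadjusted p under 0.05 and by DESeq2. EdgeR called 0% of all genes in NK and 0% in CD8 cells. Of the 13279 genes tested, 504 in NK and 481 in CD8 cells had an unadjusted p under 0.05. Both are a smaller share than the 0.05 that this threshold passes where nothing differs. DESeq2 called 207 and 157 genes. For Trdv4 the log2 fold change of KO over KE was -0.31 (SE 0.44) in NK cells. The SE of the gamma constant genes, 1.55 to 2.94 in NK cells, left large differences undetectable at this number of libraries.

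Of the alpha-beta constant genes, Trac and Trbc2 were lower in NK than in CD8 libraries in all 3 genotypes. Trac had 15285 to 36985 counts in CD8 and 152 to 611 in NK libraries, and differed by -6.52 (WT), -6.03 (KO) and -5.35 (KE) on the log2 scale (adjusted p = 0.0010, 0.0014 and 0.0030, edgeR). Trbc2 differed by -3.42, -3.20 and -2.73. The NK gate took CD3ε- and the CD8 gate CD3ε+ cells, so the direction for Trac and Trbc2 was set by the sort. The beta constant gene Trbc1 had 2814 to 15023 counts in CD8 and 5451 to 7562 in NK libraries and was not called in any genotype. The median log2 fold change of these 3 genes was -3.42 in WT, beside 0.01 over all genes.

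Summed over all rows of a chain, delta segments came to 325 to 482 CPM in NK and 0.413 to 19.4 CPM in CD8 libraries. Gamma segments came to 40.5 to 320 CPM (median 75.3) in NK and 81.3 to 919 CPM (median 249) in CD8 libraries, which overlapped (mean log2 difference -1.47, n = 6 and 6, a description since members make up most of this sum). Alpha segments came to 25.7 to 80.9 CPM in NK and 1761 to 3390 CPM in CD8 libraries, and beta segments to 982 to 1415 CPM and 2977 to 4041 CPM. Both were lower in all NK libraries than in all CD8 libraries (mean log2 differences -5.77 and -1.59, exact two-sided permutation p = 0.0022 each, the smallest that 6 against 6 can give; adjusted over 3 sums, gamma among them, 0.0032). These tests pool the genotypes, and within a genotype 2 libraries against 2 cannot reach the threshold. The sort on CD3ε set the direction of the alpha and beta differences beforehand.

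**Figure D5:**
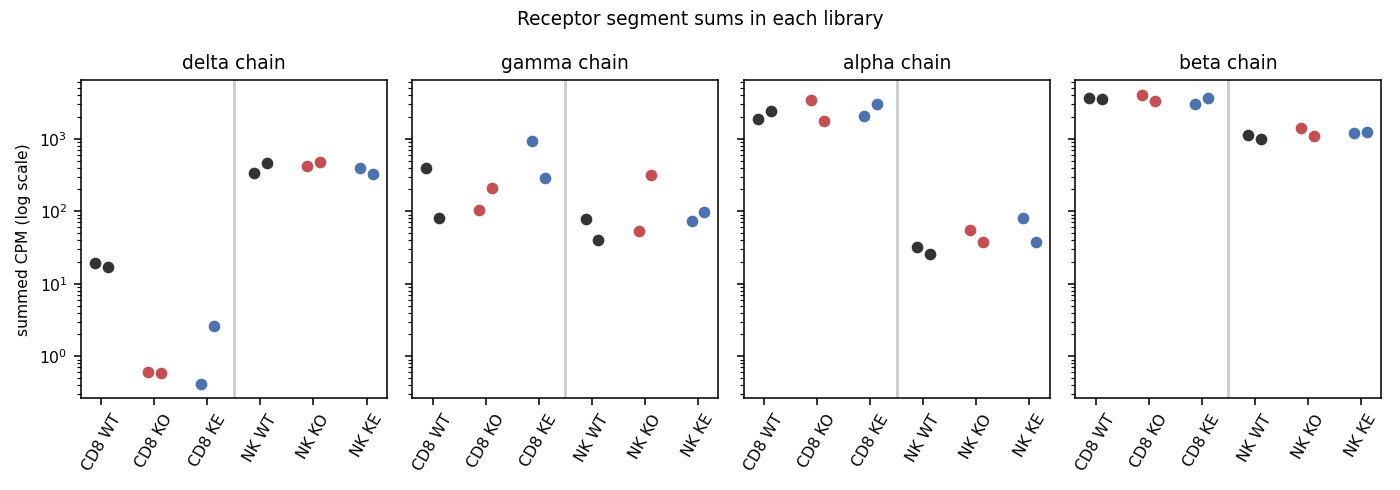
Summed CPM (log axis) of all delta, gamma, alpha and beta segment rows in each library, by group (WT dark grey, KO red, KE blue). Delta sums are higher in NK libraries (325 to 482 CPM), alpha and beta sums are higher in CD8 libraries, and gamma sums overlap.

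The share of V and J rows differed between the cell types. In NK libraries, beta J rows had 4074 to 5996 counts, and beta V rows had 142 to 832, whereas CD8 libraries had 1562 to 2913 and 10574 to 20272. Over 3 counts were reached by 13 or 14 of the 14 beta J rows in every NK library and by 1 to 6 of the 35 beta V rows. For delta, J rows had 109 to 312 counts and V rows 1854 to 3041 in NK libraries, the V reads being mostly of Trdv4 and Trdv2-2. Alpha V rows over 3 counts numbered 3 to 5 of 128 in NK and 12 to 32 in CD8 libraries.

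Of the 16 genes of the CD3 complex, co-receptors and proximal signalling, 15 were tested, and 11 (WT), 9 (KO) and 7 (KE) were lower in NK than in CD8 libraries, with none higher. Of all genes, 0.776% (WT), 0.904% (KO) and 0.7% (KE) were called, with 0.346%, 0.324% and 0.331% higher and 0.429%, 0.58% and 0.369% lower in NK. Examples are Cd3e, a CD3 chain that pairs with either receptor type, at -6.93 in WT (SE 0.76, adjusted p = 0.0018), Cd8a at -9.86 (SE 0.44) and Cd28, a costimulatory receptor, at -2.73 (SE 0.44). The gates selected on CD3ε and CD8a, so lower CD3 and CD8 genes in NK libraries check the sort and are not a finding. Cd3d, Cd3g, Cd8b1, Cd5, Cd6, Lat and Thy1 were also called in WT. In KO these were Cd3e, Cd3d, Cd3g, Cd8a, Cd8b1, Cd5, Cd6, Lat and Thy1, and in KE the same without Cd3g and Lat. CD3 transcripts were nevertheless counted in every NK library: Cd3e had 107 and 93 counts (NK WT), 127 and 700 (NK KO) and 334 and 414 (NK KE). Cd3g had 176 and 680, 224 and 1574, and 597 and 2294 counts in the same order. NK KO replicate 1, which had 0 counts of Tcrg-C1 and 1 of Tcrg-C2, was the lowest mutant NK library for both CD3 genes. The NK WT libraries had less Cd3e, and 1 of them less Cd3g, with 238 and 264 counts of Tcrg-C1 and 92 and 79 of Tcrg-C2. Between Tcrg-C2 and Cd3e, r of log2 CPM was 0.73 (rho 0.83) over the 6 NK libraries and -0.66 (rho -0.60) over the 6 CD8 libraries. The part of CD3-positive cells in the gamma values of NK libraries was not tested.

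Of 19 genes linked with the programme of gamma-delta T cells, 8 had 0 counts in all libraries, among them Sox13, a transcription factor of gamma-delta cells, Il17a, Il17f, Il23r, Il1r1, Blk and 5830411N06Rik. Of these genes, 9 were tested. Serpinb1a, a serine protease inhibitor, was the 1 gene called in a contrast of NK with CD8 cells, in KO: it had 382 and 392 counts in CD8 KO and 0 and 0 in NK KO, at least 270-fold lower in NK KO against the floor (adjusted p = 0.020). It had 1717 and 1483 counts in CD8 WT and 2 and 0 in CD8 KE, a difference that was not called (log2 fold change -10.35, SE 1.61, adjusted p = 0.082). In NK WT it had 496 and 290 counts and in NK KE 0 and 1. Cxcr6, a chemokine receptor, had 26907 to 58028 counts in CD8 libraries and 34 to 1599 in NK libraries, and was not called. None of the 9 was called in a contrast of KO or KE with WT, where edgeR called 0% of genes in both NK contrasts, 0.0527% in CD8 KO and 0.0828% in CD8 KE. Of 13279 genes, 837 (KO) and 798 (KE) in NK and 640 and 738 in CD8 cells had an unadjusted p under 0.05. Of the 9 list genes, 1 (KO) and 1 (KE) in NK and 1 and 3 in CD8 cells did. DESeq2 called 378 and 388 genes in NK and 240 and 333 in CD8 cells.

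The recombination genes Rag1 and Rag2, which cut receptor segments, and Ptcra, the pre-T alpha chain, had 0 counts in all libraries. Dntt, the terminal transferase that adds bases at the joints, had at most 4 counts and was not tested. The 6 tested genes serve end joining, and none was called by edgeR in any of the 9 contrasts, with at most 1 at an unadjusted p under 0.05. Protein-coding genes next to the loci were tested as well. All 10 neighbours of the alpha-delta locus were tested and none was called in any contrast, and likewise for 6 of the 10 neighbours of the gamma locus. At an unadjusted p under 0.05 there were at most 3 of 10 and 2 of 6 in a contrast. The 3 were in CD8 KE against WT, beside 738 of 13279 genes. The 2 were in NK KO against WT, beside 837 genes, and in NK against CD8 in KE, beside 1272. The alpha-delta neighbours Slc7a7 and Abhd4, named after their values were seen, had large fitted differences that were not called. Slc7a7, an amino acid transporter gene, had 1 and 54 counts in CD8 WT and 0 or 1 in the mutant CD8 libraries (fitted log2 fold change -5.36, SE 2.92, in KO and -7.68, SE 3.32, in KE; adjusted p = 0.89 and 0.79, edgeR). Abhd4, a lipase gene, had 3 and 1 counts (CD8 WT), 2 and 415 (CD8 KO) and 217 and 255 (CD8 KE), with 6.78 (SE 1.97) and 6.87 (SE 1.97; adjusted p = 0.84 and 0.57, edgeR). Dad1, which lies 11273 bases beyond the alpha-delta locus, had 432 CPM in CD8 WT, 469 in CD8 KO and 619 in CD8 KE on average, and 414 to 531 CPM in the NK groups.

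By log2 CPM over the 12 libraries, and leaving out receptor segments, the genes most like Trdc were Klrb1f (r = 0.99), Napsa (0.97), March8 (0.97), Enpp4 (0.96) and Klra13-ps (0.96), given without a test. Klrb1f, a C-type lectin receptor gene of the NK gene complex, had 401 and 291 counts in CD8 WT, 7 and 8 in CD8 KO, 21 and 7 in CD8 KE, and 3882 to 9328 in NK libraries. Klra13-ps, a pseudogene of the Ly49 family, had 628 and 65 counts in CD8 WT, 7 and 35 in CD8 KO, 6 and 2 in CD8 KE and 4848 to 7330 in NK libraries. The genes most like the sum of the gamma constant genes were Gm11478 (0.89), Qars (0.86), 2310022B05Rik (0.86), Fam133b (0.84) and Arhgap33 (0.83). None of these 5 is a receptor gene, and Arhgap33 was at 0 or 1 count in 7 of 12 libraries.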

How the data were processed

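Whole counts per gene were deposited by the authors. Libraries were made by a Smart-seq2 protocol per the labels. Per the study's methods, 50-nt single-end reads were trimmed with Trimmomatic, aligned to GRCm38 with STAR, and uniquely aligned reads were counted in Ensembl exons, so multi-mapping reads are lost. Samples were grouped by title, 2 libraries per group. No source says that libraries came from separate mice, so p-values measure only the spread between these samples. Genes with a mean of at least 10 normalised counts were tested in edgeR 4.0.16 (R 4.3.3, TMM, robust quasi-likelihood fit, all 12 libraries, 6 group means). A call needed a Benjamini-Hochberg adjusted p under 0.05 and a log2 fold change of 1 or more in size. DESeq2 1.42.0 was an alternative. Log2 CPM used a prior count of 2. Sums were log2-transformed after adding 1 CPM, and those of alpha and beta were compared by exact permutation (scipy 1.17.1). The gamma sum was put through the same test, which entered the adjustment only. Exact binomial 95% intervals and floors of 3 counts cover counting error only. Coordinates and sequences are from GENCODE M21 (GRCm38), and 50-base stretches were compared over all its transcripts.

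The members and gene lists were chosen with earlier results of these data known. Named were all members, the other delta and gamma rows with over 3 counts (by value for the 4 with the highest total), the 5 genes most like Trdc and the 5 most like the gamma constant sum, list genes that were called, and otherwise those with the highest level. Other rows, and library values of other genes, were named after their values were seen. Some genes of the lists are not reported here by name.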

Additional observations from a re-analysis of the deposited data

Results flagged for a closer look

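In 6 genes, both mutant libraries lay on one side of both WT libraries in NK cells and on the opposite side in CD8 cells. The values are differences on the log2 CPM scale (mutant minus WT in NK, minus the same in CD8), and none of these differences was tested. Among the 56 members and list genes looked at (Trdc left out), 5 did so for KO and 1 for KE (8.93% and 1.79%), beside 4.61% and 4.87% of all 13279 genes tested. Trdv4 gave -1.58 for KO, with 1 to 5 counts in each of the CD8 libraries of WT and KO, close to the floor. Lck, a kinase of the receptor, gave 0.50 and Lcp2, an adaptor, -0.46 for KO. Trbc1 gave 0.64 and Tmem176b 5.09 for KO. Tmem176b, a membrane protein gene, had 209 and 66 counts in CD8 WT and 5 and 2 in CD8 KO, against 1232 and 1002 in NK WT and 1903 and 1889 in NK KO. Dclre1c, the end-joining nuclease Artemis, gave -2.46 for KE. In the edgeR interaction terms across all genes, none of the 49 list genes was called for KO or KE, and the smallest adjusted p was 0.53 and 0.78, with 5 and 3 genes at an unadjusted p under 0.05.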

How the results depend on the processing

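The low number of libraries limits each test. For NK against CD8, edgeR called 2 of 8 (WT), 1 of 7 (KO) and 1 of 7 (KE) members. Trdc was left out in KO and KE, here and in the settings below. Of all genes, 0.776% (WT), 0.904% (KO) and 0.7% (KE) were called. The member numbers support nothing because these counts chose the members. Without the filter on low counts, 4 members were called in WT and 3 in KE, Tcrg-C2 and Trgv2 being added. In a fit to the WT libraries alone, 1 member was called. Leaving out 1 library gave 1 to 2 members in WT, 1 in KO and 1 in KE, where the arm with 1 library left is assumed to vary like the other groups. The Trdc difference from WT in CD8 was -5.63 to -4.94 (KO) and -5.06 to -4.79 (KE) on the log2 CPM scale when 1 library was left out, and in NK 0.35 to 1.28 (KO) and -0.49 to 0.45 (KE). The log2 difference of the gamma sum, a description, ranged from -1.85 to -1.08.

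Called list genes numbered 0 in each contrast of KO, KE and WT within a cell type. Without the filter they were 4 (KO against WT) and 6 (KE against WT) in NK, and 2 in each of the 3 CD8 contrasts. DESeq2 gave 2 and 3 in NK and 2 in each CD8 contrast. For NK against CD8, WT gave 13 (8 to 13 with 1 library left out), KO 12 (7 to 11, and 7 in a fit to the KO libraries alone) and KE 9 (6 to 12, 15 without the filter, 19 with DESeq2). Calls over all genes rose most: NK KO against WT gave 0 with edgeR, 195 without the filter and 378 with DESeq2, NK KE against WT 0, 256 and 388, CD8 KO against WT 7, 124 and 240, CD8 KE against WT 11, 185 and 333, KO against KE 0, 96 and 207 in NK and 0, 82 and 157 in CD8. NK against CD8 gave 103, 537 and 824 (WT), 120, 524 and 816 (KO), and 93, 498 and 806 (KE). Fits to the groups compared alone gave 101 (WT), 41 (KO) and 51 (KE), 3 and 4 in NK, and 1 and 0 in CD8 for KO and KE against WT. The cause of these changes was not tested.

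Fitted values that changed sign were none of them called. For KO against KE in NK, Tcrg-C2 (-0.02) became 0.0019 with RLE size factors, 0.00040 with DESeq2, and ranged from -8.54 to 0.98 with 1 library left out, Tcrg-C1 (-0.21) from -10.57 to 0.79, and Trgv2 (0.32) from -5.79 to 2.30. In CD8, Tcrg-C1 (-6.71) ranged from -9.94 to 3.24, the latter without CD8 KE replicate 1. For NK against CD8, Tcrg-C4 in WT (0.27) ranged from -4.76 (without NK WT replicate 1) to 8.06, Tcrg-V4 (3.10) from -5.54 (without NK WT replicate 2) to 8.60, Tcrg-C1 in KO (7.14) from -3.23 (without NK KO replicate 2) to 10.38, and Tcrg-C1 in KE (0.64) from -0.36 (without CD8 KE replicate 2) to 10.59.

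Replicate numbers did not pair the libraries: deviations of same-numbered libraries correlated between groups at -0.03 to 0.04. With the replicate number as a block, 2 (WT), 1 (KO) and 1 (KE) members and 12, 10 and 9 list genes were called for NK against CD8, and 0 elsewhere. Trdc was again left out of the members in KO and KE. Over all genes the block gave 76, 94 and 66 calls for NK against CD8, and 3 and 4 for KO and KE against WT in CD8.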
